A study of Mus musculus with 6 samples.

Results

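The 10 genes described here are Yap1 and Wwtr1, which encode the coactivators YAP and TAZ, with their DNA-binding partner Tead1, the kinase genes Lats1 and Lats2, and 5 genes tied to the pathway as targets or partners, Ccn1, Ccn2, Amotl1, Amotl2 and Axl. They were chosen by gene name. All 10 had a row among the 14437 genes of the deposited table, and all 10 passed the filter on low values. The table comes from RNA-seq of endothelial cells from the cerebella of C57BL6 mice at postnatal day 9. One group of 3 mice was wild-type and the other 3 mice were knock-outs of Ccm3, the older name of Pdcd10, with each library labelled as a single mouse. The question was which transcripts differ in cerebellar endothelium when Ccm3 is knocked out. The knock-out allele, any Cre driver, and the cells in which the gene was removed were not given in the sources used here. The labels name no further allele or agent in either group.

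In the Hippo pathway, MST kinases activate the LATS kinases, and these phosphorylate YAP and TAZ so that both are kept in the cytoplasm or degraded. Unphosphorylated YAP and TAZ enter the nucleus and bind TEAD proteins, which place them on DNA near target genes such as Ccn1, Ccn2, Amotl2, Axl and Lats2. Several of these targets feed back on the pathway, LATS2 as a kinase and angiomotin-like 2 as a partner that holds YAP and TAZ outside the nucleus. In endothelium YAP and TAZ are known for their part in vessel sprouting, in the response to flow and stretch, and in barrier maturation of brain vessels. The activity of YAP and TAZ is set largely by phosphorylation and location, which an RNA measurement does not read.

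The libraries held 11075769 to 21142333 recovered gene reads, and each of the 10 genes had 342 to 13998 reads in a library. Values below are normalised reads, gene reads divided by the authors' size factor of that library, listed for replicates 1, 2 and 3 in turn. Pdcd10, the targeted gene, had 529, 522 and 689 normalised reads in the wild-type and 230.1, 154 and 309 in the knock-out libraries. The groups did not overlap (fold 0.39, 95% interval 0.26 to 0.57, adjusted p = 0.0162), and the fall no longer passed when wild-type 1, 2 or 3 was left out (adjusted p = 0.0513, 0.0602 and 0.0621). All 12 endothelial markers had a row, and none passed limma's test at an adjusted p under 0.05. Their summed levels were 174815 to 202177 in the wild-type and 154744 to 184557 in the knock-out. For 4 of the 12 the knock-out libraries lay entirely below the wild-type libraries, and for 1 entirely above. Over all genes 25.5% had groups that did not overlap. Markers of mural cells, which wrap the endothelium, were also high in these libraries, 41457 to 82184 in the wild-type and 42623 to 56394 in the knock-out. None of the 14 mural markers tested passed that limit, but 5 had a positive log2 change and the median was -0.31. Summed leukocyte and microglial markers were low, 1027 to 1216 over all 6 libraries. Blood and astrocyte markers had summed levels that did not overlap between the groups. Platelet and erythroid markers summed to 10003 to 19796 in the wild-type and 5548 to 6714 in the knock-out, and 4 of the 7 tested fell, the haemoglobin genes Hba-a1, Hba-a2 and Hbb-bs and the haem synthesis gene Alas2. Astrocyte markers summed to 6146 to 7348 in the wild-type and 3761 to 4315 in the knock-out. Gja1, the connexin 43 gene, fell (limma, fold 0.57, 95% interval 0.49 to 0.66, adjusted p = 0.00235). The other 9 were not called. Without Gja1 these 9 summed to 3722, 3253 and 2021 in the wild-type and 2220, 2036 and 1571 in the knock-out. Those ranges overlap, but the 9 also ran lower in the knock-out. Of the 10 astrocyte markers 2 had a positive log2 change, and the median was -0.41. Neuronal, fibroblast and oligodendrocyte markers also leaned lower in the knock-out, with median log2 changes of -0.54, -0.35 and -0.28. A positive log2 change was seen for 0 of 10, 2 of 9 and 1 of 10 of them, and none was called. Their summed levels, given at the end, overlapped between the groups. The blood and astrocyte marker levels moved with genotype, as did the gene changes below. The part of any of these cell types in those changes was not tested. The 4 Y-linked genes were near 0 in wild-type 1 (mean log2 level 0.40), with 9.49 and 8.63 in wild-type 2 and 3. Their mean log2 level was 9.75, 7.34 and 8.68 in knock-out 1, 2 and 3, a wide spread. The labels give no sex, and whether each library came from 1 mouse, as labelled, was not tested. In bulk samples such as these, fewer cells of a type and less RNA per cell cannot be told apart. The tests measure the spread between libraries labelled as separate mice.

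Across the 10 genes, 1 rose and 1 fell in the knock-out. Ccn2, a secreted matricellular protein and a widely used readout of YAP and TAZ, was 2.10-fold its wild-type level, and Wwtr1 was 0.72-fold. The other 8 did not pass the test, among them Yap1 and Tead1, the coactivator and the DNA-binding partner, and Ccn1, the closest relative of Ccn2 in the set. A gene is said to have risen or fallen when limma's adjusted p over 14076 genes was under 0.05. Over all genes tested 6.24% changed, 3.6% by rising and 2.64% by falling. The knock-out libraries lay entirely above the wild-type libraries for 2 of the 10 genes and entirely below for 1. Over all genes 25.5% had groups that did not overlap, 12.8% with the knock-out above and 12.8% with it below. The median log2 change of the 10 genes was 0.03, against -0.0067 over all genes tested.

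**Figure D1:**
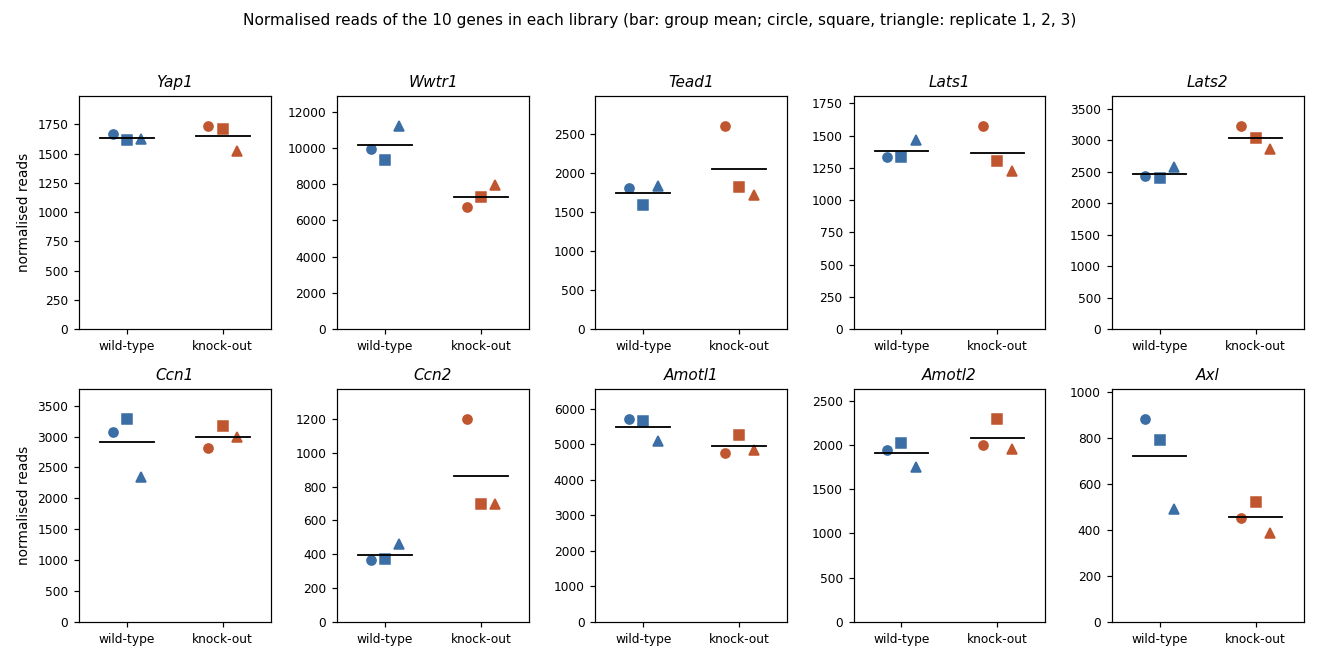
Normalised reads (y axis, from 0) of each of the 10 genes in the 3 wild-type (blue) and 3 knock-out (orange) libraries, with the group mean as a bar and replicate 1, 2 and 3 as a circle, a square and a triangle. The groups do not overlap for Wwtr1, Lats2 and Ccn2, and they overlap for the other 7.

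**Figure D2:**
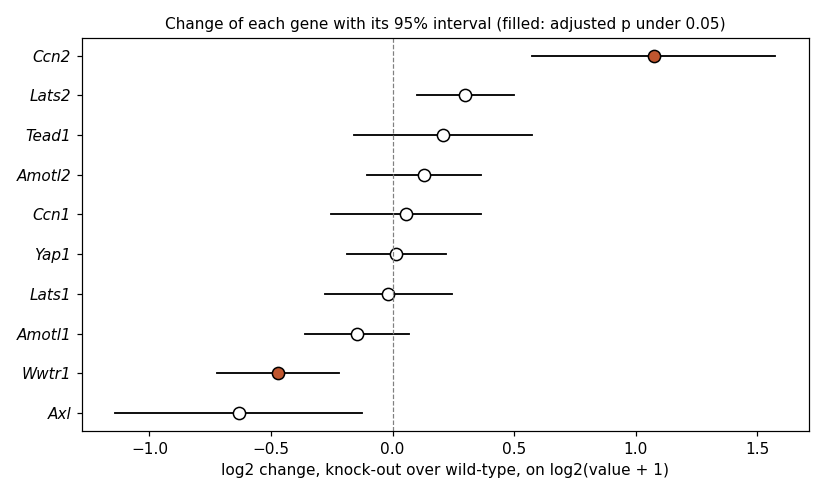
The log2 change of each gene, knock-out over wild-type on log2(value + 1), with its 95% interval from limma (n = 3 per group). Filled points are the 2 genes with an adjusted p under 0.05, Ccn2 at 1.07 and Wwtr1 at -0.47.

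Levels of different genes were compared per kilobase of exon, with all GENCODE exons of a gene merged. The annotation used for counting is not given, so the order below can depend on this choice of length. Wwtr1 was the most abundant of the 10 in the wild-type, at 2123 ± 197 normalised reads per kilobase (SD, n = 3), above 99.2% of all genes. Ccn1 followed at 1439 ± 243, then Amotl1 at 545 ± 34.9, Lats2 at 354 ± 14.0 and Amotl2 at 303 ± 22.6 normalised reads per kilobase. Below them came Lats1 at 189 ± 10.2, Yap1 at 177 ± 3.05, Axl at 143 ± 40.7, Ccn2 at 139 ± 18.3 and Tead1 at 128 ± 9.97 normalised reads per kilobase. Neighbours in this wild-type order had ranges that overlapped only for Yap1 with Axl, Axl with Ccn2, and Ccn2 with Tead1. Wwtr1 exceeded Yap1 per kilobase in every library, by 11.5, 11.2 and 13.4 times in the wild-type and 7.53, 8.28 and 10.1 times in the knock-out. In the knock-out Ccn2 stood at 302 ± 102 normalised reads per kilobase and had moved from the ninth place to the sixth. Wwtr1 was at 1531 ± 126 and Ccn1 at 1481 ± 87.8 normalised reads per kilobase in the knock-out, and their ranges overlapped there. The other neighbours that overlapped in the knock-out order were Amotl2 with Ccn2, Lats1 with Yap1, and Yap1 with Tead1.

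**Figure D3:**
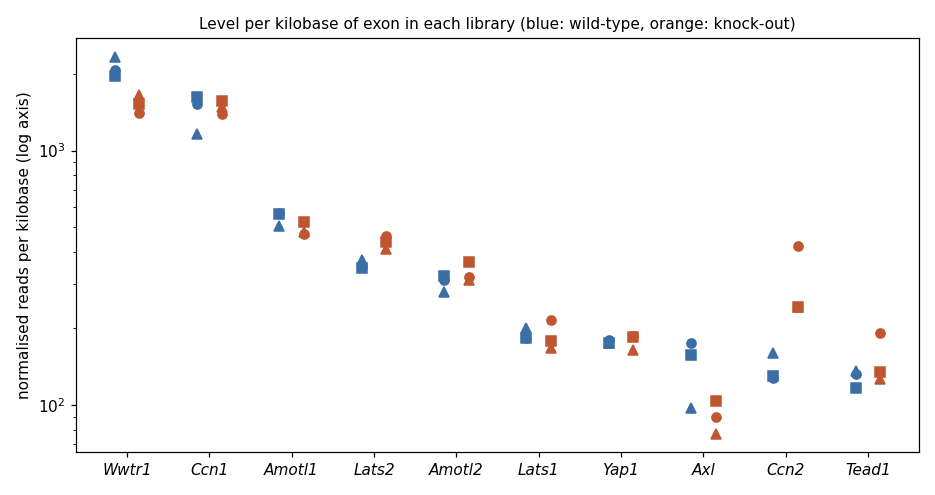
Normalised reads per kilobase of exon (log y axis) of the 10 genes, ordered by their wild-type mean, in the wild-type (blue) and knock-out (orange) libraries, with replicate 1, 2 and 3 as a circle, a square and a triangle. Wwtr1 and Ccn1 lie highest in both groups, and Ccn2 moves from 139 to 302 normalised reads per kilobase.

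Promoter windows of 300 bases, 250 before and 50 after the annotated start, were read from RefSeq (GRCm38.p6) for 8 of the 10 genes, with 10 windows in all because Wwtr1 and Lats2 have 2 each. Ccn2 and Tead1 had no entry. The windows of Wwtr1 share 266 bases. TEAD proteins are known to bind the letters GGAATG, or CATTCC on the opposite strand, and these letters stood at 6 separate sites, 1 in each of 6 of the 8 genes. Of all 27025 genes in the table, 16.6% held them in a window. No window of these genes held the AP-1 letters TGANTCA, searched on both strands, or the CArG box of SRF, against 8.97% and 1.81% of all genes. A match is a run of letters, not a measured binding site. The windows below are shown because they belong to the gene that fell and to the target genes with a match, and each is written 5′ to 3′ on the gene's strand with GGAATG or CATTCC in capitals.
Wwtr1 promoter, chr3:57575861-57576160 minus strand: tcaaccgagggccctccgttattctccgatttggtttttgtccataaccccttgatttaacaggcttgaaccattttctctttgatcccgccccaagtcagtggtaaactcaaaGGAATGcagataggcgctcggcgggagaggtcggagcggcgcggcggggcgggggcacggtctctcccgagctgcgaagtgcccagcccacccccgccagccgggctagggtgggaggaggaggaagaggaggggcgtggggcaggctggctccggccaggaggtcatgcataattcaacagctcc
Lats2 promoter, chr14:57746074-57746373 minus strand: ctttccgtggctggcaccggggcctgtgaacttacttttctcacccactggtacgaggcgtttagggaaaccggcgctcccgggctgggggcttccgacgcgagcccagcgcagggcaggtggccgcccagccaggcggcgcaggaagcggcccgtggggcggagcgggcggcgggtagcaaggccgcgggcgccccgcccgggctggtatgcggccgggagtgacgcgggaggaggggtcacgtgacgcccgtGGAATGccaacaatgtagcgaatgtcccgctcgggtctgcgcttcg
Ccn1 promoter, chr3:145649936-145650235 minus strand: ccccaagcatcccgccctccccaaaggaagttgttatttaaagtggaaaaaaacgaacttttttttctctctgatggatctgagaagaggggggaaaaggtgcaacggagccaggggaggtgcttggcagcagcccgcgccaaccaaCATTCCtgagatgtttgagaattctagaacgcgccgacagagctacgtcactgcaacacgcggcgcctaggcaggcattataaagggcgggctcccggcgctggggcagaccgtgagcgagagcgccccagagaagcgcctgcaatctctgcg
Amotl2 promoter, chr9:102717554-102717853 plus strand: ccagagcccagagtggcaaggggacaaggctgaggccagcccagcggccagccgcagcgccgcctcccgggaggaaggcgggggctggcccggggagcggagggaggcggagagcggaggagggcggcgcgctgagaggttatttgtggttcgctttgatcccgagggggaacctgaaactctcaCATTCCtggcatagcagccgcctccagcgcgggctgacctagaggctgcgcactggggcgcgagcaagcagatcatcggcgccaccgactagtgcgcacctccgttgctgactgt
Axl promoter, chr7:25788684-25788983 minus strand: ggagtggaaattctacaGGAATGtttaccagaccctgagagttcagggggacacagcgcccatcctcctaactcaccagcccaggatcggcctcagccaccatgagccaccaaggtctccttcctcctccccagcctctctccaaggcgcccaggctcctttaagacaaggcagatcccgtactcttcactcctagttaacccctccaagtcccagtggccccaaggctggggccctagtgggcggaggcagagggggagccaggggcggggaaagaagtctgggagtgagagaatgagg
The letters lie 136 bases before the start in Wwtr1, 103 in Ccn1, 65 in Amotl2 and 233 in Axl, and 5 bases after it in Lats2. Windows of Lats1 and Amotl1 held none, nor did the second window of Lats2. Yap1 held a match 141 bases before its start. Of the 6 genes with a match, Wwtr1 fell and the other 5 did not pass the test.

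Of the coactivator genes, that of TAZ fell and that of YAP did not pass the test. Wwtr1 (ENSMUSG00000027803, chromosome 3, 57455649 to 57575910, minus strand of GRCm38, as are all positions here) had 9915, 9343 and 11182 normalised reads in the wild-type and 6729, 7289 and 7929.6 in the knock-out libraries. Every knock-out library lay below every wild-type library. Its wild-type mean was 10147 ± 941 and its knock-out mean 7316 ± 601 (SD, n = 3), and the fall passed limma's test (fold 0.72, 95% interval 0.61 to 0.86, adjusted p = 0.0430). Its log2 change was negative under all 18 alternatives, from -0.53 to -0.40, but the call was lost in 5 of the 6 fits without a library. Those fits have fewer libraries and called 283 to 1021 of all genes, against 879 in the main fit. Leaving out wild-type 1, 2 or 3 gave adjusted p = 0.134, 0.110 and 0.144, and leaving out knock-out 1 or 2 gave 0.0993 and 0.109. With replicate number as a block the adjusted p was 0.0669, and with the Y-linked level as a covariate it was 0.120.

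Yap1 (ENSMUSG00000053110, chromosome 9, 7931999 to 8004596, minus strand) had 1668, 1616 and 1622 normalised reads in the wild-type and 1731, 1705 and 1526 in the knock-out libraries. The wild-type libraries differed by little and all lay within the range of the knock-out libraries. Its means were 1635 ± 28.2 and 1654 ± 112 (SD, n = 3), and the interval of the change runs from a fold of 0.88 to 1.16 (limma, fold 1.01, adjusted p = 0.960). The log2 ratio of Wwtr1 to Yap1 within a library was 2.57, 2.53 and 2.78 in the wild-type and 1.96, 2.10 and 2.38 in the knock-out. The ratio was lower in all 3 knock-out libraries, by 0.49 on the log2 scale, with p = 0.1 in a two-sided exact permutation test and an adjusted p of 0.1 over 4 ratios. With 3 against 3 libraries this is the smallest p the test can give. How often ratios of other gene pairs separate the groups was not tested, for this ratio or those below.

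By the root mean squared difference of log2 profiles over the 6 libraries, the genes nearest to Wwtr1 were Zfp704 (0.0428), Arhgap18 (0.0514) and Fbxo10 (0.0549), among 6948 genes of above-median level. The nearest to Yap1 were Tprgl (0.0228), Armcx3 (0.0254) and Dcaf1 (0.0274), with smaller distances.

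Tead1, the TEAD factor in the set (ENSMUSG00000055320, chromosome 7, 112679318 to 112906807, plus strand), had 1799.9, 1587 and 1837 normalised reads in the wild-type and 2592, 1824 and 1711 in the knock-out libraries. Knock-out 1 was far above the others and the remaining libraries of both groups overlapped. The change did not pass limma's test (fold 1.16, 95% interval 0.90 to 1.49, adjusted p = 0.559), and its interval holds both a small fall and a rise. Without knock-out 1 the log2 change went from 0.21 to 0.024. Of 7 other TEAD and VGLL genes 5 were tested, 1 rose and none fell (all genes: 6.24% called). Their median log2 change was 0.42. Vgll1 and Vgll2 are not analysed here. Vgll4, whose protein competes with YAP and TAZ for TEAD and so opposes them, was the gene that rose. It had 402, 428 and 389 normalised reads in the wild-type and 770.4, 811 and 528 in the knock-out libraries, with every knock-out library higher (fold 1.70, 95% interval 1.30 to 2.22, adjusted p = 0.0348). That call was lost in 5 of the 6 fits that left out a library, with adjusted p = 0.117, 0.117 and 0.113 without wild-type 1, 2 and 3 and 0.0831 and 0.109 without knock-out 1 and 2, and with the Y-linked covariate (0.096).

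Tead4, another TEAD factor, had 241, 267 and 281 normalised reads in the wild-type and 487, 516 and 307 in the knock-out libraries. Its groups did not overlap either, but the adjusted p was 0.0942 (limma, fold 1.62, 95% interval 1.18 to 2.23), and it was called without knock-out 3, with array weights and with DESeq2. Tead3 (fold 1.33, adjusted p = 0.539) and Tead2 (fold 0.91, adjusted p = 0.737) did not pass the test, nor did Vgll3 (fold 1.32, adjusted p = 0.796).

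The LATS kinases, which inactivate YAP and TAZ, did not pass the test in either case. Lats2 (ENSMUSG00000021959, chromosome 14, 57689662 to 57758388, minus strand) had 2434, 2397 and 2581 normalised reads in the wild-type and 3217, 3042 and 2865 in the knock-out libraries. All knock-out libraries lay above all wild-type libraries, with means of 2471 ± 97.5 and 3042 ± 176 (SD, n = 3), yet limma's adjusted p was 0.0947 (fold 1.23, 95% interval 1.07 to 1.41). DESeq2 on the recovered reads and limma with array weights both put Lats2 past the limit, with adjusted p = 0.0260 and 0.0414. In GENCODE, 2955 of its exon bases, 42.39%, are shared with a same-strand predicted gene, Gm49361, which is not analysed here, so reads in that stretch could have been assigned to either.

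Lats1 (ENSMUSG00000040021, chromosome 10, 7681214 to 7716460, plus strand) had 1338, 1334 and 1464 normalised reads in the wild-type and 1571, 1307 and 1226 in the knock-out libraries. The groups overlapped, with a fold of 0.99 (95% interval 0.82 to 1.18, limma adjusted p = 0.962). The log2 ratio of Lats2 to Lats1 was 0.86, 0.85 and 0.82 in the wild-type and 1.03, 1.22 and 1.22 in the knock-out. It was higher in all 3 knock-out libraries, by 0.32 (exact permutation test, p = 0.1, adjusted p = 0.1).

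Among 21 other core Hippo kinases and adaptors, all tested, none rose and 1 fell (all genes: 6.24% called). Their median log2 change was 0.13. The gene that fell was Frmd6, an upstream adaptor also named Willin, which had 1057, 1029 and 1197 normalised reads in the wild-type and 615, 609.6 and 705 in the knock-out libraries (fold 0.59, 95% interval 0.50 to 0.70, adjusted p = 0.00635). Its groups stand clearly apart, and the call held in all 18 alternatives. The next in order of p were Taok3, a kinase upstream of MST (fold 1.58, adjusted p = 0.0640), Stk38, a relative of LATS (fold 1.29, adjusted p = 0.0679), and Map4k1, a kinase that can act in parallel to MST (fold 1.80, adjusted p = 0.184). None of these 3 passed the test in the main fit. Taok3 did so with the replicate block (adjusted p = 0.0251), with DESeq2 and with the mural covariate. Stk38 passed with array weights and with DESeq2, and Map4k1 passed with the mural covariate.

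The angiomotin-like genes of the set did not pass the test and had folds on opposite sides of 1. Amotl1 (ENSMUSG00000013076, chromosome 9, 14541966 to 14645056, minus strand) encodes a junctional protein that binds YAP and TAZ. It had 5706, 5659.5 and 5076 normalised reads in the wild-type and 4739, 5272 and 4826 in the knock-out libraries (limma, fold 0.90, 95% interval 0.78 to 1.05, adjusted p = 0.462). Amotl2 (ENSMUSG00000032531, chromosome 9, 102716672 to 102733418, plus strand), its relative and also a YAP and TAZ target, had 1942, 2023 and 1747 normalised reads in the wild-type and 2004, 2293 and 1954 in the knock-out libraries (fold 1.09, 95% interval 0.93 to 1.29, adjusted p = 0.577). Both genes had overlapping groups. Their ratio separated the groups, since the log2 ratio of Amotl2 to Amotl1 was -1.55, -1.48 and -1.54 in the wild-type and -1.24, -1.20 and -1.30 in the knock-out, higher by 0.28 (exact permutation test, p = 0.1, adjusted p = 0.1).

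Amot, the founding angiomotin, fell. It had 1342, 1425 and 1583 normalised reads in the wild-type and 834, 1048 and 1052 in the knock-out libraries, with no overlap (fold 0.67, 95% interval 0.55 to 0.82, adjusted p = 0.0315). It is in the list of other inhibitors and binding partners of YAP and TAZ, of which 24 of 25 were tested. In that list 2 rose and 2 fell (all genes: 6.24% called), with a median log2 change of 0.09. Rassf6 is not analysed here. Rassf2, an adaptor of the MST kinases, also fell, from 1770.2, 1751 and 1762 in the wild-type to 826, 1180.1 and 1233 normalised reads in the knock-out (fold 0.60, 95% interval 0.48 to 0.77, adjusted p = 0.0288).

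Ywhah and Ptpn21 rose. Ywhah encodes a 14-3-3 protein, the family that holds phosphorylated YAP and TAZ in the cytoplasm, and had 2735, 2321 and 2105 normalised reads in the wild-type and 3568, 4028 and 3319 in the knock-out libraries (fold 1.53, 95% interval 1.26 to 1.86, adjusted p = 0.0254). Ptpn21, a junctional phosphatase related to the YAP partner PTPN14, had 353, 375 and 375 normalised reads in the wild-type and 655, 565 and 476 in the knock-out libraries (fold 1.53, 95% interval 1.23 to 1.89, adjusted p = 0.0368). Each of these 4 genes had groups that did not overlap, as did 25.5% of all genes. Each call was lost in several fits that left out 1 library. Such fits have fewer libraries and called 283 to 1021 of all genes, against 879 in the main fit. Without wild-type 1, 2 and 3 the adjusted p was 0.0741, 0.128 and 0.116 for Amot, 0.0996, 0.118 and 0.0902 for Rassf2, and 0.141, 0.14 and 0.103 for Ptpn21. Ywhah lost its call without wild-type 2 (0.121) or wild-type 3 (0.0901). Leaving out knock-out 1 gave 0.0505 for Amot, 0.0708 for Ptpn21 and 0.0514 for Ywhah, and leaving out knock-out 2 gave 0.0639, 0.105 and 0.0856 for these and 0.0600 for Rassf2. With the replicate block Ptpn21 had an adjusted p of 0.058. With the Y-linked covariate the calls of Amot (0.0769), Rassf2 (0.0876) and Ptpn21 (0.115) were lost, and with the mural covariate those of Rassf2 (0.0604) and Ptpn21 (0.0735). Rassf1 (fold 1.33, adjusted p = 0.0976), Ywhag (fold 1.24, adjusted p = 0.220) and Tjp1 (fold 0.83, adjusted p = 0.243) were next and did not pass the test.

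**Figure D4:**
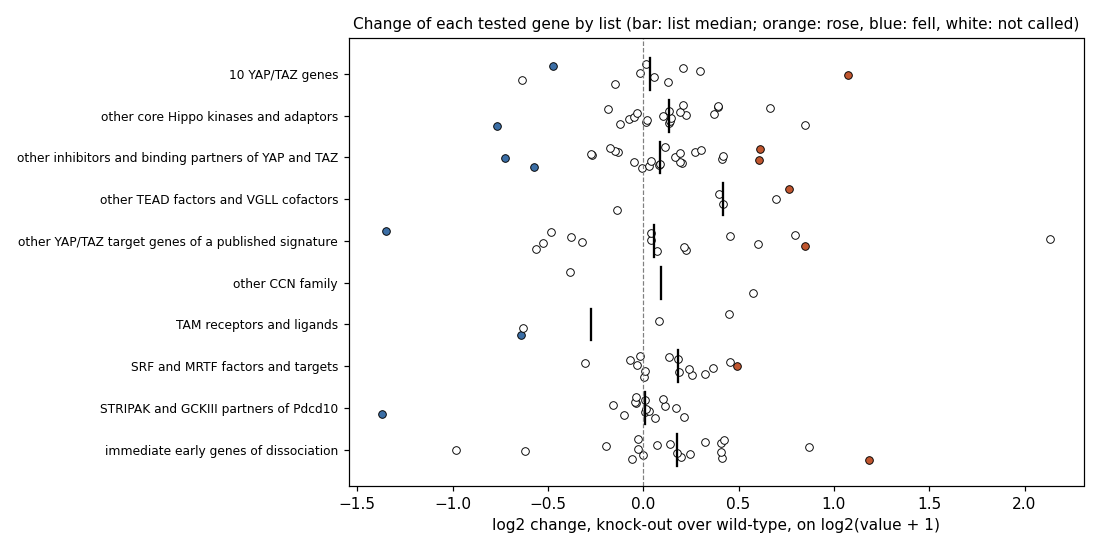
The log2 change of every tested gene in each list (x axis, knock-out over wild-type on log2(value + 1)), with list medians as bars, genes that rose in orange, genes that fell in blue and genes not called in white. Most genes of each list are not called, and list medians lie between -0.27 for TAM receptors and ligands and 0.42 for TEAD and VGLL genes.

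Of the target genes in the set, Ccn2 rose while Ccn1 and Axl did not pass the test. Ccn2 (ENSMUSG00000019997, chromosome 10, 24595442 to 24598683, plus strand), also named CTGF, had 365, 372 and 459 normalised reads in the wild-type and 1200.4, 696 and 696 in the knock-out libraries. All knock-out libraries lay above all wild-type libraries, with knock-out 1 far above the other 2. Mean levels were 398 ± 52.4 and 864 ± 291 (SD, n = 3), and limma gave fold 2.10, 95% interval 1.49 to 2.98, adjusted p = 0.0268. Without knock-out 1 the log2 change was 0.81 and the adjusted p 0.0182. Leaving out wild-type 1, 2 or 3 ended the call (adjusted p = 0.0983, 0.117 and 0.0512), as did leaving out knock-out 2 (0.0514), and fits with the mural or Y-linked level as a covariate did so too (0.0597 and 0.0778). The antisense gene Gm15270 shares 665 of its exon bases, 23.24%, and had 14.1, 23.4 and 26.2 normalised reads in the wild-type and 24.5, 19.6 and 15.9 in the knock-out.

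Ccn1 (ENSMUSG00000028195, chromosome 3, 145646976 to 145649981, minus strand), also named CYR61 and of the same matricellular family, had 3080.0, 3283 and 2350.2 normalised reads in the wild-type and 2813, 3168 and 2989 in the knock-out libraries. Wild-type 3 was lowest and the groups overlapped, with a fold of 1.04 (95% interval 0.84 to 1.29, limma adjusted p = 0.886). The log2 ratio of Ccn2 to Ccn1 was -3.08, -3.14 and -2.36 in the wild-type and -1.23, -2.19 and -2.10 in the knock-out, higher by 1.02 with no overlap (exact permutation test, p = 0.1, adjusted p = 0.1). Of the other CCN genes, Ccn3 (fold 1.49, adjusted p = 0.589) and Ccn4 (fold 0.77, adjusted p = 0.612) did not pass the test, and Ccn5 and Ccn6 are not analysed here.

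**Figure D5:**
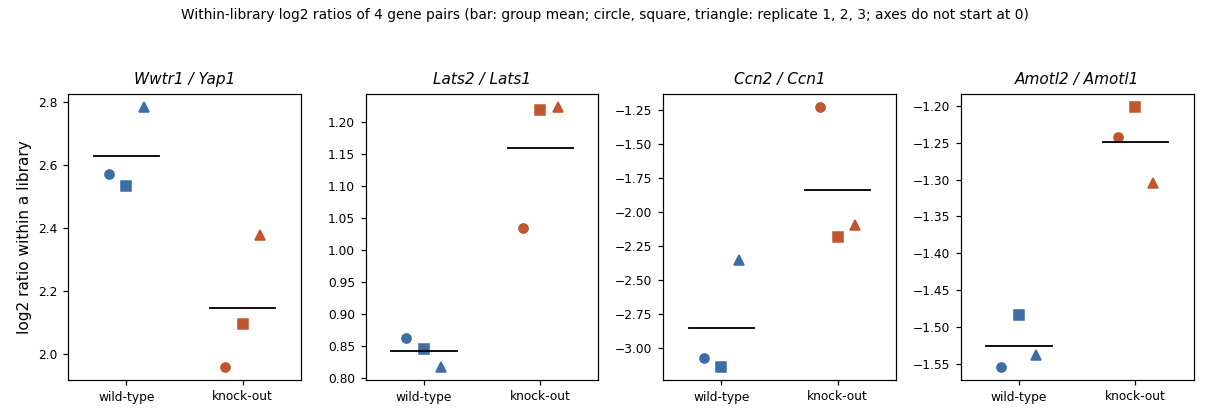
Within-library log2 ratios of 4 pairs of related genes in the wild-type (blue) and knock-out (orange) libraries, with the group mean as a bar, replicate 1, 2 and 3 as a circle, a square and a triangle, and y axes that do not start at 0. The groups do not overlap for any of the 4 ratios, which differ by -0.49, 0.32, 1.02 and 0.28 from left to right. How often ratios of other gene pairs separate was not tested, and 25.5% of single genes did. Yap1, Lats1 and Ccn1 had log2 changes of 0.014, -0.018 and 0.055. The ratios to these genes therefore largely repeat the changes of Wwtr1, Lats2 and Ccn2.

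The nearest log2 profiles to that of Ccn1 belonged to Rpl39 (0.0681), Junb (0.0723) and E2f6 (0.0754). Junb is an immediate early gene, and Ccn1 and Ccn2 are themselves known to respond within a short time to serum and stretch. Dissociation of tissue also induces such genes. Of 19 immediate early genes of dissociation 1 rose and none fell (all genes: 6.24% called), with a median log2 change of 0.18. Their summed levels were 48794 to 63225 in the wild-type and 57703 to 67850 in the knock-out. The gene that rose was Atf3, a stress-induced AP-1 family factor, at 2052, 1999 and 1565 normalised reads in the wild-type and 3839.7, 4868 and 4047 in the knock-out libraries (fold 2.28, 95% interval 1.83 to 2.83, adjusted p = 0.00274), with the call kept in all 18 alternatives. Without knock-out 3 the count was 4, with Ier3, Socs3 and Dusp1 added, and DESeq2 called the same 4 genes. Ier3 (fold 1.83, adjusted p = 0.0580), Socs3 (fold 1.34, adjusted p = 0.0874) and Dusp1 (fold 1.33, adjusted p = 0.102) did not pass, and Ier3 also passed with the replicate block (adjusted p = 0.0116). The part of these genes in the values of Ccn1 and Ccn2 was not tested. Nearest to Ccn2 were Lepr (0.0906), Klf6 (0.1) and Jade2 (0.123), at larger distances than those of Ccn1.

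Axl, a receptor tyrosine kinase of the TAM family and a target of YAP and TAZ (ENSMUSG00000002602, chromosome 7, 25757273 to 25788705, minus strand), had 881, 791 and 490.3 normalised reads in the wild-type and 449.8, 523 and 388 in the knock-out libraries. Wild-type 3 lay within the knock-out range, so the groups overlapped. Means were 721 ± 205 and 454 ± 67.4 (SD, n = 3), and limma gave fold 0.64, 95% interval 0.45 to 0.92, adjusted p = 0.163. Without wild-type 3 the log2 change was -0.89 and the adjusted p 0.0316, and DESeq2 on the recovered reads gave an adjusted p of 0.0372. The summed mural markers were 82184, 69100 and 41457 in wild-type 1, 2 and 3, with wild-type 3 again the lowest. With the mural level as a covariate the log2 change of Axl was -0.40 (adjusted p = 0.0970).

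Gas6, the ligand of AXL, fell. It had 434, 437 and 516 normalised reads in the wild-type and 319, 298 and 271 in the knock-out libraries with no overlap (fold 0.64, 95% interval 0.53 to 0.78, adjusted p = 0.0230). The call was lost with the replicate block (adjusted p = 0.0504), with the Y-linked covariate (0.0568), and when any wild-type library (0.0707, 0.0915 and 0.0913 without 1, 2 and 3) or knock-out 2 (0.0678) was left out. Mertk, a sister receptor, had 342, 383 and 479 normalised reads in the wild-type and 287, 222 and 263 in the knock-out libraries (fold 0.64, adjusted p = 0.0628). It did not pass in the main fit but was called with array weights, DESeq2 and the mural covariate. Tyro3 (fold 1.37, adjusted p = 0.439) and the ligand gene Pros1 (fold 1.06, adjusted p = 0.720) did not pass either. Of the 4 other TAM genes 1 fell and none rose (all genes: 6.24% called), with a median log2 change of -0.27.

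Most of a wider set of target genes did not pass the test. Of 17 other genes of a published YAP and TAZ signature 16 were tested, 1 rose and 1 fell (all genes: 6.24% called). Their median log2 change was 0.06. With array weights 4 were called, with Igfbp3 and Rbms3 added, and with DESeq2 5, with Foxf2 as well. Ankrd1, a target often used beside Ccn1 and Ccn2, is not analysed here. Tgfb2, a TGF-beta ligand, had 1527, 1689 and 1940.3 normalised reads in the wild-type and 634, 688 and 695 in the knock-out libraries and fell (fold 0.39, 95% interval 0.33 to 0.47, adjusted p = 0.00132). Dock5, an exchange factor for the GTPase RAC, had 556, 628 and 586 normalised reads in the wild-type and 1193, 1111 and 904 in the knock-out libraries and rose (fold 1.80, 95% interval 1.48 to 2.20, adjusted p = 0.00720). The groups of both genes were far apart, and both calls held in all 18 alternatives.

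Igfbp3, a secreted carrier of insulin-like growth factors in the same signature, had 411, 551 and 662 normalised reads in the wild-type and 6125, 2423 and 858 in the knock-out libraries. Its knock-out values were all higher but spread widely, so that limma gave fold 4.39, 95% interval 1.70 to 11.36, adjusted p = 0.0833. Rbms3 (fold 0.71, adjusted p = 0.0503) and Foxf2 (fold 0.80, adjusted p = 0.0976) did not pass the test. Rbms3 narrowly missed the limit and passed with the replicate block (adjusted p = 0.0472), array weights, edgeR and DESeq2. It also passed with upper-quartile or quantile scaling, a pseudocount of 8, a minimum of 50, and without knock-out 1.

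SRF with its MRTF cofactors responds to actin and shares targets with YAP and TAZ, Ccn1 and Ccn2 among them. Of 15 such genes 1 rose and none fell (all genes: 6.24% called), with a median log2 change of 0.18. Flna, which encodes the actin crosslinker filamin A, had 10926, 11095 and 9438 normalised reads in the wild-type and 13134, 15724 and 15361 in the knock-out libraries and rose (fold 1.41, 95% interval 1.17 to 1.69, adjusted p = 0.0462), a call lost in 10 of the 18 alternatives, including the replicate block (adjusted p = 0.0945), edgeR (0.0503), the absence of wild-type 1, 2 or 3 (0.128, 0.139 and 0.157) and that of knock-out 2 or 3 (0.128 and 0.0847). Filip1l (fold 1.29, adjusted p = 0.184), Myh9 (fold 1.37, adjusted p = 0.223) and Mrtfb (fold 0.81, adjusted p = 0.232) did not pass.

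The CCM3 protein is a part of the STRIPAK phosphatase complex, which is known to hold MST kinases inactive. Of 16 STRIPAK and GCKIII genes 15 were tested, none rose, and the 1 that fell was Pdcd10 itself (all genes: 6.24% called). Stk26 is not analysed here. Fgfr1op2 (fold 1.16, adjusted p = 0.217), Slmap (fold 1.13, adjusted p = 0.340) and Stk25 (fold 0.89, adjusted p = 0.477) were next in order of p and did not pass the test, and the median log2 change was 0.01.

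The 10 genes also differed in how much they varied between libraries. In the wild-type the SD of log2 values was lowest for Yap1 (0.0247) and highest for Axl (0.45), against a median of 0.155 over all genes tested. In the knock-out it was lowest for Amotl1 (0.0822) and highest for Ccn2 (0.454), against 0.233. Knock-out 1 had the highest knock-out value of 5 genes, Yap1, Tead1, Lats1, Lats2 and Ccn2, and the lowest of Wwtr1, Ccn1 and Amotl1. Wild-type 3 had the lowest wild-type value of Ccn1, Amotl1, Amotl2 and Axl and the highest of Wwtr1, Tead1, Lats1, Lats2 and Ccn2. The same library had the lowest summed mural and the highest summed endothelial level of its group. With the mural level as a covariate the log2 change moved from -0.63 to -0.40 for Axl and from 1.07 to 0.98 for Ccn2. It moved from 0.05 to 0.17 for Ccn1, from 0.13 to 0.19 for Amotl2 and from -0.47 to -0.53 for Wwtr1. For Tead1 it went from 0.21 to 0.18, for Lats2 from 0.30 to 0.28 and for Amotl1 from -0.15 to -0.095. Yap1 went from 0.014 to 0.031 and Lats1 from -0.018 to -0.048. What part mural or endothelial content had in these values was not tested.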

How the data were processed

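Endothelial cells were isolated with CD45 and CD31 beads, and total RNA was depleted of ribosomal RNA and made into stranded libraries, per the labels' protocols. Per the submitters' processing notes, Trim Galore, STAR 2.5.3a, DESeq2 and the GRCm38 build were used. Not given in the sources used here are the counter, annotation, filter and strand setting, and overlapping and antisense genes are therefore uncertain. The deposited table holds normalised signal, gene reads that the authors divided by a size factor per library. Within 0.01 of a read, a margin that widened in proportion for high counts, 100% of values came out whole, and the reads behind them were recovered. The fewest reads of any gene in the deposited table, summed over libraries, was 12. Replicates differed by more than sampling noise (chi-square per degree of freedom 14.2 to 58.8). All sample columns were used.

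Values were taken as log2(value + 1) and fitted with limma 3.58.1 in R 4.3.3 (genotype, two-sided, empirical Bayes with trend). P-values were adjusted by the Benjamini-Hochberg method over the 14076 genes that reached 10 in 3 or more libraries. Fold changes are on that scale and understate the change of low genes, and intervals (95%) cover the spread between libraries. Within-library ratios were compared by exact permutation. The fits were tested on simulated data. Alternatives were pseudocounts of 8 and 0.5, no filter, a minimum of 50, upper-quartile and quantile scaling, a replicate block, array weights, edgeR 4.0.16 and DESeq2 1.42.0 on recovered reads, mural or Y-linked level as a covariate, and each library left out. Exon lengths and positions are from GENCODE M21.

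The genes and lists were chosen with earlier results of these data known. The text names all 10 genes, every gene of the 9 other pathway lists that passed, up to 3 more per list by smallest p, and for Yap1, Wwtr1, Ccn1 and Ccn2 the 3 nearest profiles. Replicate numbers come from the sample titles. Same-numbered libraries deviated together from their group means (correlations 0.101, 0.110 and 0.192; other pairs -0.381 to 0.295), which is just past the limit of 0.1 set for pairing, but 3 differently numbered pairs also exceeded it (0.295, 0.191 and 0.109). The labels do not say that a number marks a shared litter or day. The main tests and permutations are unpaired, with the replicate block as an alternative. Single mice as libraries are as labelled.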

Additional observations from a re-analysis of the deposited data

How the results depend on the processing

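Of all genes 879 changed, and the count was 1373 with DESeq2, 897 with edgeR, 769 with the replicate block, 457 with the Y-linked covariate, and 283 to 1021 without a library. Of the 10 genes 2 changed, and the count was 4 with DESeq2 (Lats2 and Axl added), 1 with the replicate block (Ccn2), 1 with the mural covariate (Wwtr1), 0 with the Y-linked covariate, and 0 to 2 without a library. The replicate block ended the calls of Wwtr1, Ptpn21, Gas6 and Flna, brought in Taok3, Rbms3 and Ier3, and changed no other call of a named gene. With array weights Lats2 passed and Wwtr1 missed the limit (adjusted p = 0.05004).

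Wwtr1, Tead1, Lats2, Ccn2, Amotl1, Amotl2 and Axl kept their direction in all 18 alternatives. Yap1, Lats1 and Ccn1, near 0 and not called, changed sign. Yap1 was -0.016 with upper-quartile scaling, -0.0059 with quantile scaling, and -0.020 to 0.071 without a library. Lats1 was -0.12 to 0.057 without a library. Ccn1 was -0.041 with array weights and -0.091 to 0.15 without a library. The cause was not tested. All 4 ratios kept their direction, with p = 0.25 for each when paired by replicate number, the smallest that an exact sign-flip permutation test of 3 pairs can give. No thinning of reads was run, so the part of depth was not tested. Of 162 alternative counts for the other lists, 113 stayed within 1.5 times.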

Other observations

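Neuronal markers summed to 2998 to 3236 in the wild-type and 1709, 1843 and 4639 in knock-out 1, 2 and 3, and oligodendrocyte markers to 9667 in wild-type 3 against 1627 to 4904 in the other 5 libraries. Fibroblast markers summed to 2247 to 4526 in the wild-type and 1894 to 3267 in the knock-out.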
